A study of Mus musculus with 6 samples.

Results

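The matrix metalloproteases and their tissue inhibitors (TIMPs) were followed in the mammary gland of female bitransgenic mice at 10 and 5 weeks of age. The genes were 7 proteases (Mmp2, Mmp3, Mmp9, Mmp11, Mmp12, Mmp13 and Mmp14) and 3 inhibitors (Timp1, Timp2 and Timp3). They were taken as every probe set whose single gene symbol in the platform annotation was one of these names, which gave 22 of the 45037 probe sets and 10 of 18193 named genes. There were 3 pools per age, 1 array for each pool and 3 animals in a pool, so that 9 animals stood behind an age. Mice of both ages came from a cross of LH and MMTV-neu mice. The MMTV-neu transgene places the neu (Erbb2) oncogene under the promoter of the mouse mammary tumour virus, which is active mainly in mammary epithelium. The sources used here do not describe the LH transgene. Both transgenes were present at both ages, and no other genotype was analysed here, so age is the only contrast. A difference between ages cannot be told apart from one between days of collection or hybridisation, since the sources used here give no dates.

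Matrix metalloproteases are zinc-dependent enzymes that are made as inactive precursors and cut collagens, laminins, elastin and other proteins outside or on the surface of cells. TIMPs bind the active site of the mature enzymes and block it. Mmp14, which sits in the plasma membrane, uses Timp2 as an adaptor to bind and activate the precursor of the gelatinase Mmp2, so this inhibitor also takes part in activation. In the mammary gland these genes are best known from stromal cells around growing ducts, from branching and from the remodelling of the gland after lactation.

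At 10 weeks the proteases moved in opposite directions. Mmp12, the macrophage elastase, was 15.2 times as bright at 10 weeks as at 5 weeks, where its mean signal of 45.2 was dim and its level over background is unknown. Mmp3 was also brighter at 10 weeks, but its call was lost in 6 of 15 alternative analyses. Mmp13 was brighter too, but it was too dim to be tested in the main analysis. Mmp14 and Mmp2 were lower at 10 weeks, with mean signals at 5 weeks 3.34 and 2.19 times those at 10 weeks. The inhibitors Timp1 and Timp3 were lower too, while Timp2, Mmp9 and Mmp11 did not pass the test. Mmp12, Mmp3 and Mmp13 lie in 1 run of metalloprotease genes on chromosome 9, where Mmp1b, which was too dim to be tested, stands between Mmp12 and Mmp3. Their promoters share the AP-1 letters described below, which were not found in the 5 other members with a promoter at hand. For Mmp12 this holds at 1 of its 2 start sites. The letters are not particular to these 3 genes, since 5 other genes of the run held them, among them Mmp10 and Mmp20, which were called in neither direction.

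Promoters are shown for the 3 members on chromosome 9 and, to set beside them, for Mmp14 and Timp1, which were lower at 10 weeks. The RefSeq promoter table (GRCm38.p6) matched 8 of the 10 genes, and Mmp12 has 2 start sites in it. Each line gives the 150 bases before a start site, 5′ to 3′. Capitals mark the AP-1 letters TGANTCA (N is any base), the TATA letters TATAAA on the strand of the gene, and the GC box GGGCGG on either strand, which reads CCGCCC on the opposite one.
Mmp12, start site 2, chr9:7347224-7347373, plus strand: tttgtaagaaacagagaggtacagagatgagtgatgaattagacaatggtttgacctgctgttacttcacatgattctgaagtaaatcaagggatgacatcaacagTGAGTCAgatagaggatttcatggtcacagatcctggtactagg
Mmp12, start site 1, chr9:7344247-7344396, plus strand: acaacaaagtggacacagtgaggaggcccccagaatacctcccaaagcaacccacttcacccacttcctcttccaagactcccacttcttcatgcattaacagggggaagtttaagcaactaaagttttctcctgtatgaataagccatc
Mmp3, chr9:7445672-7445821, plus strand: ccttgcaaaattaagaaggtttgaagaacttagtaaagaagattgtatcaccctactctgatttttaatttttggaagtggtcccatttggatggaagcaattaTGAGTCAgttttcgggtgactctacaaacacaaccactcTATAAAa
Mmp13, chr9:7272364-7272513, plus strand: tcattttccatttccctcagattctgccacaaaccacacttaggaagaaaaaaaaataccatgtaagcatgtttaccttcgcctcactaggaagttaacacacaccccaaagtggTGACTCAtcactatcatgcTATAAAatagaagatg
Mmp14, chr14:54431448-54431597, plus strand: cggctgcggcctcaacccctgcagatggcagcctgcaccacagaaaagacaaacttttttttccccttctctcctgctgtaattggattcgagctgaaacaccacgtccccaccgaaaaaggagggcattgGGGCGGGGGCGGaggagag
Timp1, chrX:20870016-20870165, plus strand: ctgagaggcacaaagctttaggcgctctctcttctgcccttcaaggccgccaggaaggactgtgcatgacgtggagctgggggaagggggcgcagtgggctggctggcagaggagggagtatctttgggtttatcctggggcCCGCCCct

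The AP-1 letters, which proteins of the Fos and Jun families bind, stood 46 bases before the start of Mmp3, 44 bases before start site 2 of Mmp12 and 35 bases before that of Mmp13. In these 3 promoters a TATAAA followed, and the distance from the first base of TGANTCA to the first base of TATAAA was 39, 48 and 19 bases in that order of genes. The TATAAA of Mmp12 lies 5 bases past the start site and so outside the letters shown. Start site 1 of Mmp12 had neither. The 5 other members with a promoter in the table (Mmp11, Mmp14, Timp1, Timp2 and Timp3) had no TGANTCA in 300 bases and each had a GC box. Of all 32851 promoters of 300 bases (250 before and 50 after the start), 7.81% held TGANTCA, 8.32% held TATAAA and 35.7% held the GC box. The ETS letters AGGAAG, searched on both strands, stood in 6 of the 8 members (35.4% of all promoters). A match is a description of the sequence and says nothing of whether a factor binds there.

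The arrays were of similar brightness, with median signals of 156.4 to 172.5, and log2 signals correlated at 0.973 to 0.978 between pools of the same age and at 0.932 to 0.955 between ages. Signal here is the deposited linear intensity of a probe set, which has no unit and is not comparable between probe sets. Differences are given as log2(signal + 32) at 10 weeks minus the same at 5 weeks, tested with limma across 27022 probe sets, and a call is a Benjamini-Hochberg adjusted p under 0.05. The offset of 32 understates the differences of dim genes. The dimmest 40% of probe sets, those with a signal under about 102.5, were not tested. Where a gene has several probe sets, the brightest stands for it.

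Of the 10 genes, 9 passed this filter, and Mmp13 did not. By limma 2 members were higher at 10 weeks (Mmp12 and Mmp3), 4 were lower (Mmp2, Mmp14, Timp1 and Timp3) and 3 did not pass the test. Among all 13002 genes tested, 15.3% were higher and 18.7% lower, 34.1% in either direction. Mmp12 passed the filter through its 10-week signal alone, so a count over the genes that passed is no measure of how many members differ. With no filter, all 10 genes were tested, and then Mmp12 and Mmp13 were higher, the same 4 were lower, and Mmp3 was not called. The pools of the ages did not overlap for 7 of the 10 genes, 3 higher (24% of all genes tested) and 4 lower (26.3%) at 10 weeks, against 50.3% of all genes tested in either direction.

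**Figure D1:**
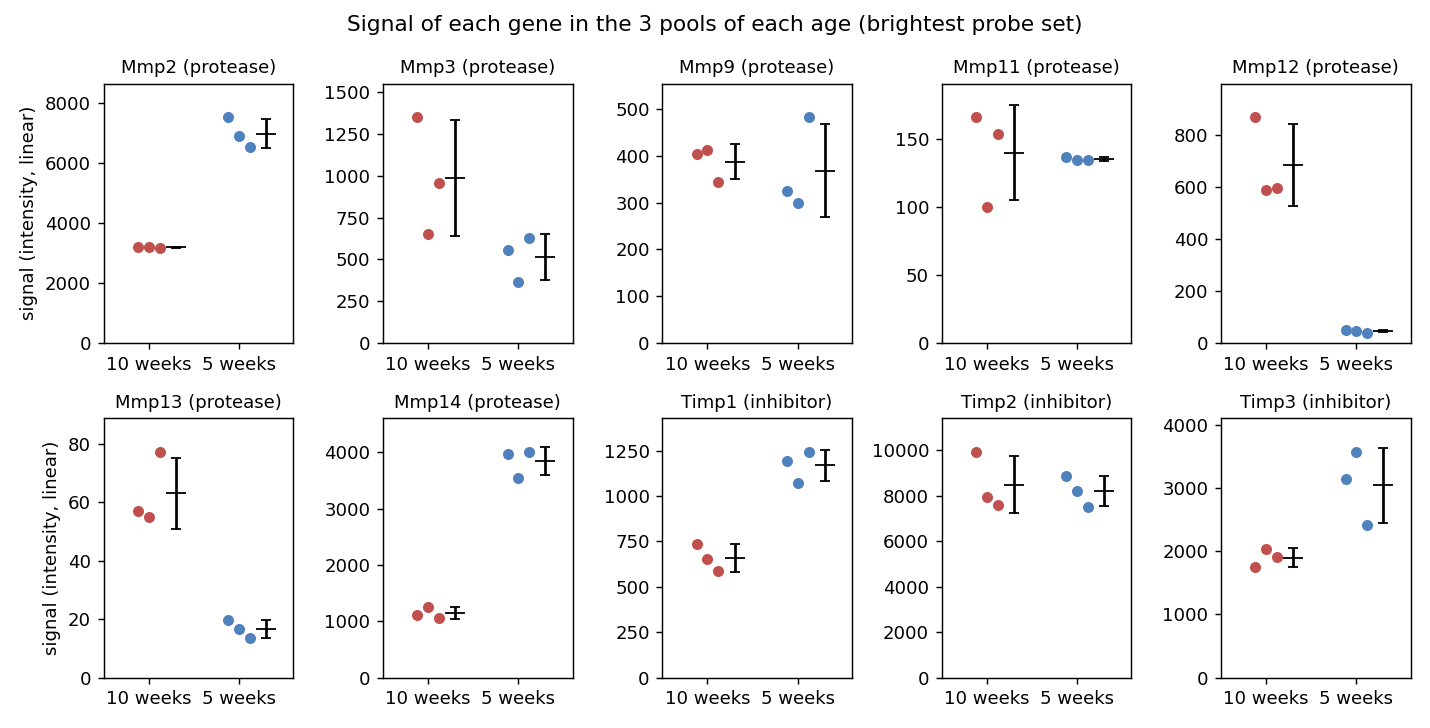
Signal (linear intensity, vertical axis from 0, with a scale of its own for each gene) in the 3 pools at 10 weeks (red) and the 3 pools at 5 weeks (blue), with the mean and SD beside them as bars, for the brightest probe set of each gene. The pools of the ages do not overlap for Mmp2, Mmp3, Mmp12, Mmp13, Mmp14, Timp1 and Timp3, and they overlap for Mmp9, Mmp11 and Timp2.

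The membrane protease Mmp14 and its target Mmp2 were both lower at 10 weeks. Mmp14 had signals of 1119.9, 1261.8 and 1064.7 in the 10-week pools, against 3972.0, 3548.1 and 3998.7 in the 5-week pools. Every 10-week pool lay below every 5-week pool by a wide margin, and the log2 difference was -1.71 ± 0.11 (SE, limma adjusted p = 3.91e-05). The other probe sets of Mmp14 gave larger differences of -2.22 ± 0.12 (SE, adjusted p = 3.1e-05) and -2.25 ± 0.22 (SE, adjusted p = 0.000211) in the same limma fit. Mmp14 thus fell on all 3 of its probe sets.

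Mmp2, gelatinase A, which cuts denatured and basement membrane collagen, had signals of 3200.5, 3195.5 and 3170.2 at 10 weeks and 7524.5, 6891.1 and 6544.0 at 5 weeks. On this probe set the 10-week pools were nearly identical, with a coefficient of variation of 0.509%, against 7.12% at 5 weeks. On the further probe set given below the order was reversed (8.58% at 10 weeks and 2.11% at 5 weeks). The log2 difference was -1.12 ± 0.09 (SE, limma adjusted p = 7.85e-05). A further probe set of Mmp2 had 3257.4, 2820.9 and 2813.2 at 10 weeks against 6792.2, 7073.7 and 6866.5 at 5 weeks, a log2 difference of -1.22 ± 0.09 (SE, limma adjusted p = 7.01e-05).

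The protease that gained most was Mmp12, which cuts elastin and is known chiefly from macrophages. Its signals were 868.7, 590.4 and 596.2 at 10 weeks, against 49.0, 46.7 and 39.8 at 5 weeks. All 5-week pools lay in the dim range that the filter leaves out, while all 10-week pools lay far above it. The log2 difference was 3.20 ± 0.19 (SE, limma adjusted p = 3.45e-05), and its size depends on the offset (3.87 with an offset of 1 and 2.42 with an offset of 100).

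Mmp3, stromelysin-1, a broad matrix protease that also activates other metalloproteases, had signals of 1349.1, 654.2 and 957.3 at 10 weeks and 557.1, 362.1 and 629.5 at 5 weeks. The 2 ages were barely apart, since the lowest 10-week pool (654.2) lay just above the highest 5-week pool (629.5). The log2 difference of 0.87 ± 0.27 (SE) passed the test narrowly (limma adjusted p = 0.0398). The call was lost in 6 of 15 alternatives, with an adjusted p of 0.0577 to 0.122 across those 6, and without 10-week pool 1 the difference was 0.62.

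Mmp13, collagenase-3, which cuts fibrillar collagen, had signals of 56.9, 55.1 and 77.1 at 10 weeks and 19.6, 16.5 and 13.4 at 5 weeks. Both ages lay under the brightness filter, so the gene was not tested in the main analysis. At 10 weeks the signal averaged 63.0 ± 12.2 and at 5 weeks 16.5 ± 3.1 (SD over 3 pools), a ratio of 3.82. With no filter the log2 difference was 0.96 ± 0.17 (SE) with a limma adjusted p of 0.00786, where 22.5% of all genes were called. At this brightness the files do not show whether the 5-week signal lies above background.

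Mmp9, gelatinase B, known from neutrophils, macrophages and growing tissue, did not pass the test. Its signals were 404.8, 413.4 and 344.8 at 10 weeks and 323.7, 298.2 and 482.0 at 5 weeks, a log2 difference of 0.09 with a 95% interval from -0.33 to 0.52 (limma adjusted p = 0.748). Pool 3 at 5 weeks was the highest of all 6, and it was so on a further probe set as well, with 348.5 against 157.1 and 154.0 in the other 5-week pools and 195.8, 235.9 and 248.8 at 10 weeks. Mmp11, stromelysin-3, a stromal protease of invading and involuting tissue, had 165.5, 99.8 and 153.5 at 10 weeks and 136.8, 134.0 and 134.5 at 5 weeks. Its log2 difference was 0.02 with a 95% interval from -0.43 to 0.47 (limma adjusted p = 0.96). The spread of Mmp11 lay almost wholly within the 10-week pools, where the coefficient of variation was 25.1%, against 1.11% at 5 weeks.

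Among the inhibitors, Timp1 and Timp3 were lower at 10 weeks. Timp1, a secreted inhibitor of most metalloproteases, had signals of 738.2, 651.2 and 587.0 at 10 weeks and 1191.6, 1072.7 and 1241.4 at 5 weeks. The ages were well apart, with a log2 difference of -0.80 ± 0.13 (SE, limma adjusted p = 0.00185). Timp3, which binds to the matrix and also blocks ADAM proteases, had 1748.0, 2036.4 and 1911.7 at 10 weeks and 3141.7, 3563.0 and 2405.7 at 5 weeks. Its log2 difference was -0.65 ± 0.15 (SE, limma adjusted p = 0.0104). Of its 3 other probe sets, a pair also fell (-0.84 with limma adjusted p = 0.00582, and -0.70 with 0.0185), and the remaining one, with a difference of -0.18, did not pass the test (0.461).

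Timp2, the inhibitor that helps Mmp14 activate Mmp2, did not follow them. Its brightest probe set had signals of 9905.9, 7941.0 and 7584.5 at 10 weeks and 8841.5, 8205.6 and 7519.4 at 5 weeks. The pools overlapped, and the log2 difference was 0.04 with a 95% interval from -0.23 to 0.31 (limma adjusted p = 0.818). The 6 probe sets of Timp2 disagreed. One of them had 10051.4, 7856.1 and 8822.5 at 10 weeks against 6657.0, 6110.1 and 6436.9 at 5 weeks, and it was called higher (0.47 ± 0.10 SE, limma adjusted p = 0.0103). Another had 6445.3, 5384.0 and 6164.8 at 10 weeks against 7651.5, 6604.0 and 6783.0 at 5 weeks, without overlap in the other direction, and it did not pass the test (-0.23, limma adjusted p = 0.132). A pair gave -0.08 each without a call, and the dimmest, with mean signals of 5.63 at 10 weeks and 14.8 at 5 weeks, was not tested. No direction is therefore given for Timp2.

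**Figure D2:**
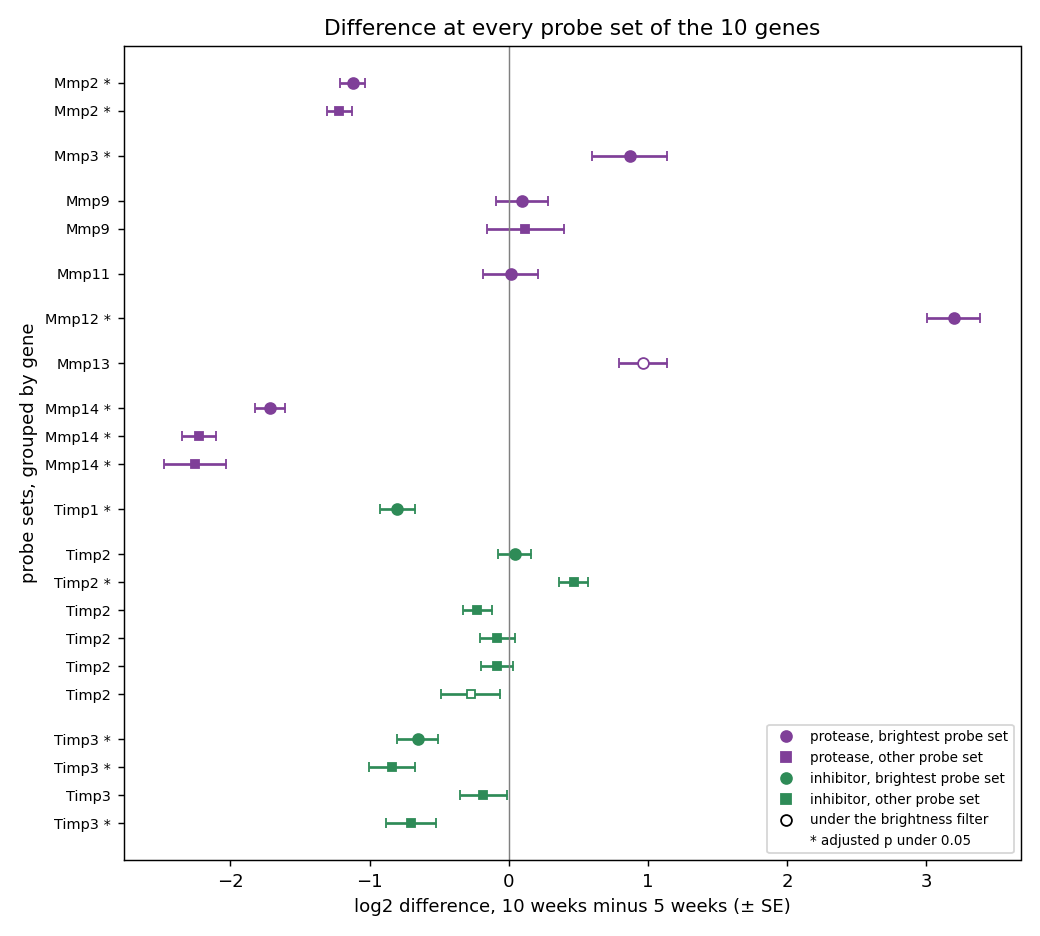
Log2 difference (10 weeks minus 5 weeks, horizontal axis) with its SE for all 22 probe sets, grouped by gene, proteases in purple and inhibitors in green. Filled points come from the main limma analysis, where 3 probe sets were higher and 9 lower at adjusted p under 0.05 (asterisks), and the 2 open points lie under the brightness filter and come from the analysis with no filter. The probe sets of Mmp2, of Mmp9 and of Mmp14 each lie close together on 1 side, and those of Timp2 lie on both sides of 0.

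Across all 22 probe sets, 20 were tested, of which 3 were higher and 9 lower, against 13.4% and 15.3% of all probe sets tested, or 28.8% in either direction. Probe sets of a gene are repeated measurements of it, and the 9 lower ones all belong to Mmp2, Mmp14, Timp1 and Timp3. The count is therefore not one of separate members. Set side by side, the 6 tested proteases had a median log2 difference of 0.05 and the 3 inhibitors of -0.65, while the median of all genes tested was 0.00 (quartiles -0.34 and 0.28). The protease median hides a wide range, from -1.71 for Mmp14 to 3.20 for Mmp12. By their brightest probe sets the inhibitors ran from -0.80 for Timp1 to 0.04 for Timp2. Other probe sets of Timp2 lay on both sides of 0, and the one called higher stood at 0.47. Relative to each gene's mean at 5 weeks, the log2 median of all 7 proteases stood at 0.24, 0.18 and 0.15 in pools 1 to 3 of the 10-week mice, and at 0.07, -0.02 and -0.01 in those of the 5-week mice. For the inhibitors it stood at -0.64, -0.55 and -0.64 in the 10-week mice, against 0.07, 0.01 and -0.12 in the 5-week mice. These medians do not describe each gene, since Mmp2 and Mmp14 lay far below their 5-week means in every 10-week pool, and Timp2 lay at 0.28 in 10-week pool 1, above every 5-week pool. When the lowest 60% of probe sets were left out, Mmp11 and Mmp12 also dropped out, and the gap between the protease and inhibitor medians narrowed to 0.14, against 0.71 in the main analysis. No test is given for these medians, since the genes were chosen with results of these data known.

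Beyond the 10 genes, 12 further Mmp and Timp genes had a probe set, and 8 of them passed the filter. Mmp19, a protease of basement membrane proteins, was lower, with signals of 106.8, 156.2 and 141.2 at 10 weeks and 610.7, 490.1 and 529.8 at 5 weeks (log2 difference -1.79 ± 0.17 SE, limma adjusted p = 0.000176). Mmp23 was lower as well, with a log2 difference of -0.84 ± 0.19 (SE, limma adjusted p = 0.0106). Mmp7, matrilysin, a protease made by epithelial cells, was higher, with 231.5, 287.5 and 221.1 at 10 weeks and 178.7, 56.2 and 52.5 at 5 weeks (1.25 ± 0.33 SE, limma adjusted p = 0.0219). The call of Mmp7 was lost without 10-week pool 1 (adjusted p = 0.052) or 2 (0.0706), and without 5-week pool 2 (0.0621) or 3 (0.0715). The other 5 (Mmp8, Mmp16, Mmp17, Mmp24 and Timp4) did not pass the test, with differences from -0.28 for Timp4 to 0.29 for Mmp8.

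Mmp3, Mmp12 and Mmp13 are part of a run of 10 metalloprotease genes on chromosome 9, which in the RefSeq order of GRCm38.p6 reads Mmp13, Mmp12, Mmp1b, Mmp3, Mmp1a, Mmp10, Mmp8, Mmp27, Mmp20 and Mmp7, with no other protein-coding gene between them. Of the 9 with a probe set, 4 were tested. Of these, 3 (Mmp12, Mmp3 and Mmp7) were higher at 10 weeks, none was lower and Mmp8 did not pass the test. Among all genes tested, 15.3% were higher and 18.7% lower. Mmp12 and Mmp7 passed the filter through their 10-week signals alone, with mean signals of 45.2 and 95.8 at 5 weeks. The count is therefore no measure of how many genes of the run differ. The 5 genes under the filter included Mmp13, described above, and Mmp1a, with 51.3, 71.8 and 47.8 at 10 weeks and 23.9, 42.1 and 17.4 at 5 weeks. With no filter Mmp1a did not pass the test (0.58, limma adjusted p = 0.11), nor did Mmp1b, Mmp10 and Mmp20, with differences of 0.17, -0.08 and 0.01. In the promoter window 8 of the 10 genes in the run held TGANTCA, and only Mmp8 and Mmp27 did not. Of the 4 tested genes, Mmp12, Mmp3 and Mmp7 held it. The rest with these letters (Mmp13, Mmp1a, Mmp1b, Mmp10 and Mmp20) were too dim to be tested in the main analysis. Whether the letters go with a rise was not tested. The called genes of the run (Mmp12, Mmp3 and Mmp7) were higher, as the plot of all measured Mmp and Timp genes shows. The called metalloprotease genes measured elsewhere in the genome (Mmp2, Mmp14, Mmp19 and Mmp23) were lower. A gene of the run that was dim at 5 weeks could pass the filter only by being brighter at 10 weeks. The contrast in direction is therefore no measure of the run either. With no filter Mmp12, Mmp13 and Mmp7 (limma adjusted p = 0.048) were called higher, and Mmp3 was not (0.0726). The calls of Mmp3 and Mmp7 are also the ones that single pools could end.

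**Figure D3:**
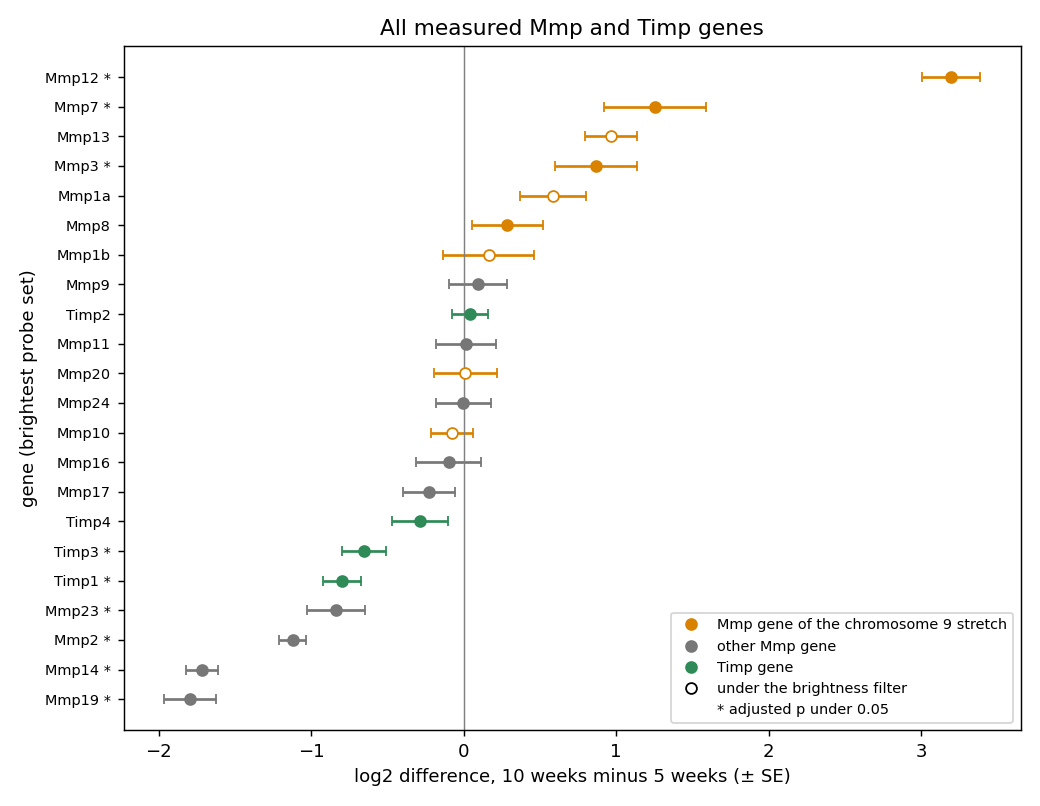
Log2 difference (10 weeks minus 5 weeks, horizontal axis) with its SE for the brightest probe set of each measured Mmp and Timp gene, from highest to lowest, with genes of the chromosome 9 run in orange, other Mmp genes in grey and Timp genes in green. Asterisks mark adjusted p under 0.05, and open points lie under the brightness filter and come from the analysis with no filter. Called orange points lie to the right of 0, and called grey and green points to the left. Of the called orange points, Mmp12 and Mmp7 passed the filter through their 10-week signals alone.

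The genes whose profile over the 6 arrays was most like that of Mmp12, by Pearson's r of log2(signal + 32) among 13001 other genes, were Abhd14b, Erp44 and Mrps35, each with r of 0.999 or above. Abhd14b had signals of 3556.2, 3161.4 and 3218.1 at 10 weeks and 1836.7, 1828.9 and 1791.6 at 5 weeks. For Mmp14 they were Cbfb (r = 0.998), Gpx8 (0.997) and Dcbld2 (0.997), and Gpx8 had 248.6, 273.5 and 256.2 at 10 weeks and 1109.7, 959.9 and 1009.0 at 5 weeks. Likeness of this kind is common where the ages separate, since 952 genes had r over 0.95 with Mmp12 and 902 with Mmp14.

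Genes that control metalloproteases at the cell surface were mostly lower. Of 14 tested, 10 were lower and 1 higher, with a median log2 difference of -0.72. Among all genes tested, 18.7% were lower and 15.3% higher. Reck, a membrane-anchored inhibitor of several metalloproteases including Mmp2, Mmp9 and Mmp14, had signals of 940.5, 775.3 and 796.0 at 10 weeks and 1841.0, 1565.6 and 1593.7 at 5 weeks (-0.97 ± 0.12 SE, limma adjusted p = 0.000614). Reck thus moved the same way as Timp1 and Timp3. Lrp1, the endocytic receptor that clears metalloproteases and their complexes with TIMPs, fell by 1.72, and Thbs2, a thrombospondin that binds Mmp2 for this clearance, fell by 2.19. The collagen receptor Ddr2 fell by 1.63, the integrin gene Itgb3 fell by 1.74, and Cd44, a hyaluronan receptor that can hold Mmp9 at the surface, fell by 0.75. Itgb3 passed the filter through its 5-week signal alone, since its mean at 10 weeks was 101.1. With no filter it was lower as well (limma adjusted p = 0.00399). The gene that rose was Ddr1, an epithelial collagen receptor (0.85), named after its value was seen.

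The list of the plasminogen system, convertases and cathepsins, which can activate or work beside metalloproteases, was mixed. Of 13 tested, 4 were higher and 3 lower, with a median of 0.14, against 15.3% and 18.7% of all genes tested. St14, the membrane serine protease matriptase, rose by 1.73, the convertase gene Pcsk7 by 0.85, and the lysosomal cysteine protease genes Ctsl and Ctss by 0.59 and 0.44. The convertase gene Pcsk5 fell by 1.47 and Plat, the tissue plasminogen activator, fell by 1.21. Furin, the convertase that cuts the precursors of Mmp11 and Mmp14, had a difference of 0.12 and did not pass the test (limma adjusted p = 0.47), and it was named after its value was seen.

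Matrix proteins that metalloproteases cut were lower for the most part. Of 22 tested, 18 were lower and 1 higher, with a median of -0.85, against 18.7% and 15.3% of all genes tested. Col18a1, a collagen of basement membranes, fell by 2.25, the proteoglycan gene Vcan fell by 2.07 and the fibril-associated collagen gene Col14a1 fell by 1.52. Col5a1 fell by 1.31, Col1a1, the main fibrillar collagen chain, fell by 1.05, and Fn1, fibronectin, fell by 1.59. The gene that rose was Col4a3 (0.68, named after its value was seen), and its call was lost with no filter (adjusted p = 0.0747) and without any 1 of 4 pools (0.105 to 0.122). Most substrates and the proteases Mmp2 and Mmp14 were thus lower at the same age, which holds for any genes called lower, and a link between them was not tested.

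Of 20 genes for cytokines and transcription factors that are known to act on metalloprotease genes, 7 were higher and 4 lower, with a median of -0.02. Among all genes tested, 15.3% were higher and 18.7% lower. The increases numbered 5 with no filter and without any single pool except 10-week pool 3, since the calls of Runx1 and Stat3 were then lost. Tnf, an inflammatory cytokine, had signals of 427.4, 274.7 and 291.8 at 10 weeks and 144.3, 57.5 and 70.5 at 5 weeks (1.61 ± 0.28 SE, limma adjusted p = 0.00304). Il1b, another one, had 288.5, 309.5 and 355.6 at 10 weeks and 152.6, 160.1 and 120.8 at 5 weeks (0.99 ± 0.17 SE, limma adjusted p = 0.00259). Both thus rose with no overlap between the ages, as did 24% of all genes tested. Tnf passed the filter through its 10-week signal alone, since its mean at 5 weeks was 90.8. The growth factor genes Tgfb2 and Tgfb3 rose by 1.53 and 1.22, and the ETS factor gene Elk3 fell by 0.87. The other ETS factor genes of the list were looked at after their values were seen. Etv5 fell by 1.09, and Ets1 and Ets2 did not pass the test (-0.54 and -0.07). Etv4 was under the filter and was lower with no filter (-2.10, limma adjusted p = 0.00095). Of the AP-1 genes, Junb rose, with 775.4, 809.0 and 765.7 at 10 weeks and 462.4, 506.4 and 445.9 at 5 weeks (0.70 ± 0.12 SE, limma adjusted p = 0.00253). The other AP-1 genes were looked at after their values were seen: Jun fell by 0.57, Fosl2 fell by 0.42, Fos, Fosb and Jund did not pass the test (-0.01, -0.19 and 0.31), and Fosl1 was not tested. The call of Fosl2 was lost without any 1 of 3 pools (adjusted p = 0.0531 to 0.0578) and when its probe sets were averaged (0.177). The subunits of AP-1 did not move in 1 direction.

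**Figure D4:**
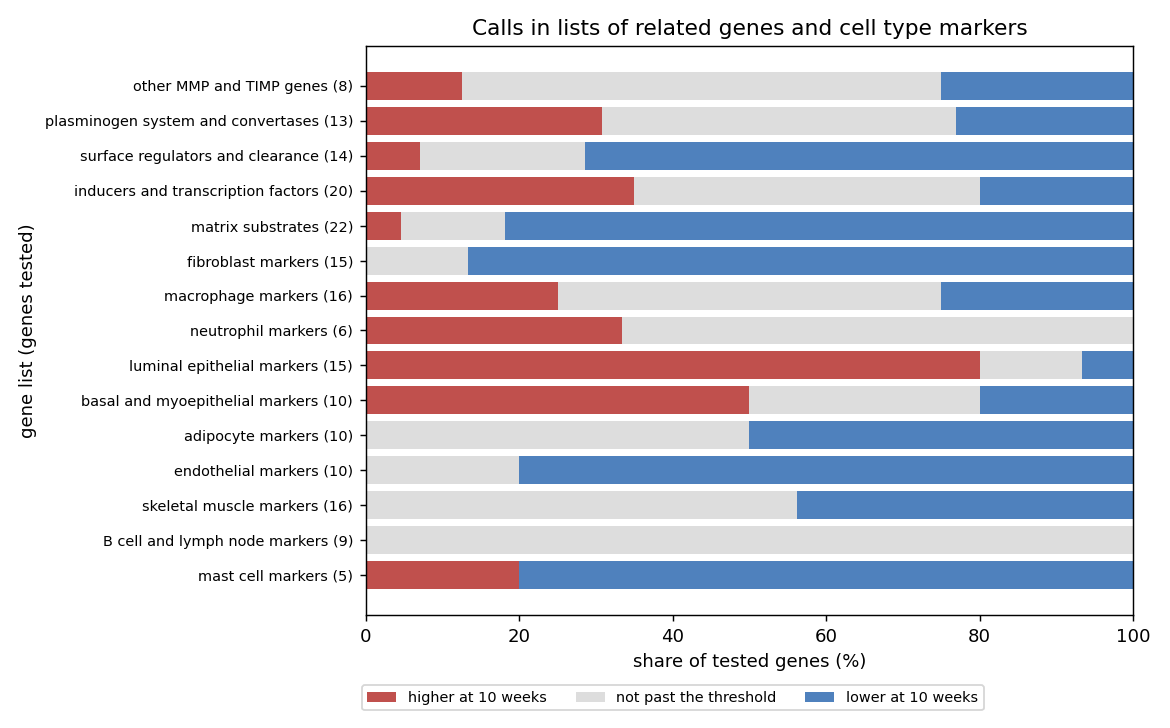
Share of the tested genes of each list (horizontal axis, %) that was higher at 10 weeks (red), did not pass the threshold (grey) or was lower at 10 weeks (blue), with the number of genes tested in brackets. Fibroblast markers and matrix substrates, which share Dcn, Col1a1, Col1a2 and Col3a1, and surface regulators are mostly blue, and luminal epithelial markers are mostly red. Among all genes tested, 15.3% were higher and 18.7% lower.

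Markers of the cells that make these genes moved as well, and in bulk tissue fewer cells of a type and less RNA per cell cannot be told apart. The shares to set beside every marker count here and below are 15.3% higher and 18.7% lower among all genes tested. The 15 fibroblast markers share Dcn, Col1a1, Col1a2 and Col3a1 with the list of matrix substrates. All 15 were tested, 13 were lower and none was higher (median -1.05). Their summed signal was 64004 to 72997 at 10 weeks and 106744 to 124969 at 5 weeks, so that they were lower at the same age as Mmp2, Mmp14, Timp1 and Timp3. Any genes called lower at 10 weeks share this, and a link was not tested. Of 10 endothelial markers 8 were lower and none higher (summed signal 6763 to 8565 at 10 weeks and 11063 to 12989 at 5 weeks), and of 10 adipocyte markers 5 were lower (8 with quantile normalization) and none higher (71474 to 86599 and 86147 to 105886 in the same order of ages). Of 15 luminal epithelial markers 12 were higher and 1 lower (76459 to 88043 at 10 weeks and 38447 to 50101 at 5 weeks), and of 10 basal and myoepithelial markers 5 were higher (3 without 5-week pool 2) and 2 lower (30109 to 31898 and 23656 to 26331). Only 1 basal marker was lower when any pool except 5-week pool 2 was left out, since the call of Krt17 was then lost. The part of these shifts in the results for the proteases and inhibitors was not tested. Luminal, basal and adipocyte markers of the gland were measured at both ages, and all of those with a probe set passed the filter.

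Macrophage markers, set beside Mmp12, did not rise as a list. Of 16 tested, 4 were higher (Mpeg1, Cx3cr1, Lyz2 and Adgre1, by 0.82, 0.72, 0.32 and 0.42) and 4 were lower (Mrc1, Cd163, Folr2 and Csf1r, which fell by 1.10, 1.70, 1.57 and 0.28), with a median of -0.21. The summed signal was 32654 to 35915 at 10 weeks and 35807 to 39403 at 5 weeks, which overlapped. Of the calls, those of Cx3cr1, Lyz2, Adgre1 and Csf1r did not hold when single pools were left out, and without 10-week pool 1 or 5-week pool 1 only 1 of the 4 increases was called. The sum adds probe sets of different brightness, and the part of macrophages in the Mmp12 result was not tested.

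Of 6 neutrophil markers tested, which were set beside Mmp9, 2 were higher and none lower, and these were S100a8 (1.49) and Ltf (1.46), a gene that mammary epithelium also uses. The summed signal was 13545 to 17139 at 10 weeks and 3773 to 8724 at 5 weeks, and the 5-week pool in which Mmp9 was highest had the lowest sum. The sum rests mostly on Ltf, and the defining genes S100a9, Camp and Cxcr2 were under the filter. Of 5 mast cell markers 4 were lower (2 when the lowest 60% of probe sets were left out) and 1 higher (summed signal 3662 to 3973 at 10 weeks and 2997 to 4640 at 5 weeks). The 9 B cell and lymph node markers tested had a summed signal that overlapped between the ages (8070 to 10414 at 10 weeks and 6892 to 12587 at 5 weeks). Pool 2 at 5 weeks stood apart in them, and Cd79a, a part of the B cell receptor, had 69.6, 53.8 and 174.6 at 10 weeks and 68.5, 756.4 and 87.2 at 5 weeks. The median log2 difference of these markers was -0.21 with all pools, 0.33 without 5-week pool 2, where 6 were tested, 0.01 without 10-week pool 1, -0.09 without 10-week pool 2, -0.39 without 10-week pool 3, -0.67 without 5-week pool 1 and -0.50 without 5-week pool 3, so no direction is given. Of 16 skeletal muscle markers, which reflect tissue next to the gland, 7 were lower and none higher, and the calls ended without 5-week pool 1 or without 5-week pool 3. Their summed signal was 8384, 68066 and 64122 in pools 1 to 3 at 10 weeks, against 154268, 86374 and 166074 at 5 weeks. The part of muscle, neutrophils, lymph node or mast cells in the results was not tested.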

How the data were processed

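RNA from mammary gland was biotin-labelled and put on 6 one-colour arrays, per the labels. The deposited values are linear intensities, one signal per probe set, which the authors had scaled to a trimmed mean of 500 on every array, trimming 2% at each end (found from the values). The sources used here name no algorithm, detection call or date. Of 45101 probe sets, 64 controls were left out. A single symbol was annotated for 34945 of the others, several for 932 and none for 9160, and symbols were updated by gene identifier for 34741.

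Values under 1 were set to 1 and log2(signal + 32) was taken. Array medians lay within 0.118 on the log2 scale, under the tolerance of 0.2, so no normalization was added. The dimmest 40% of probe sets were dropped. limma 3.58.1 in R 4.3.3 (lmFit, eBayes with a variance trend, two-sided, 4 residual degrees of freedom) compared 10 with 5 weeks over 27022 probe sets, with Benjamini-Hochberg adjustment. All 10 genes are named with every probe set; from each list of related genes, at most 6 called genes are named in order of adjusted p, and 3 genes most alike for the largest called increase and decrease. Pools are numbered by accession order, which pairs none. The labels give each pool as a sample of its own, and the p-values measure the spread between such pools. The exact permutation test of 3 against 3 pools cannot go below 0.1 and was not used.

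The steps were tested on simulated data. The 15 alternatives changed the offset, filter, normalization, variance model, array weights and probe sets of a gene, and left out each pool. The genes, lists and alternatives were chosen with earlier results of these data known. Promoters come from RefSeq (GRCm38.p6). Figures used matplotlib 3.10.9 in Python 3.11.15.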

Additional observations from a re-analysis of the deposited data

How the results depend on the processing

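Of the 9 genes tested, Mmp2, Mmp14, Timp1 and Timp3 kept their direction and their calls in all 15 alternatives, and Mmp12 kept both in the 14 in which it was tested, with differences from 2.42 to 3.87. Mmp9, Mmp11 and Timp2 were called in no alternative that tested them. The call of Mmp3 was lost with no filter (adjusted p = 0.0726), with no variance trend (0.0577), without 10-week pool 1 (0.122) or 3 (0.0931), and without 5-week pool 1 (0.0662) or 2 (0.108). Members called higher therefore numbered 1 with no variance trend and 1 or 2 when each pool was left out. They numbered 1 when the lowest 60% of probe sets were left out, where Mmp12 was not tested, and the protease median was then -0.51 and the gap between protease and inhibitor medians 0.14. Members called lower numbered 4 in every alternative. When each pool was left out, the protease median ran from -0.02 to 0.15, the inhibitor median from -0.76 to -0.53 and the gap from 0.52 to 0.91. Genes called higher over the whole array then numbered 1399 to 1762 and lower 1887 to 2033, against 1992 and 2436 with all pools, and fewer samples enter those fits. No paired analysis was possible because the labels carry no shared replicate numbers. Without detection calls, the signal over background of Mmp12 and Mmp13 at 5 weeks is unknown.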
